A study of Drosophila melanogaster with 12 samples.

Results

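The difference between female and male heads of Drosophila melanogaster was computed within each of 3 lines and then compared between the lines. All 12 arrays of the series entered the comparison, 4 for each line, and no array was left out. The features were all 13966 probe sets that are not array controls, of which 8380 were tested, namely those whose Signal averaged 128.3 (percentile 40) or more over the arrays. They were chosen on brightness alone, without regard to sex or line.

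The study measured head RNA of the lines Canton S B, BG02514 and BG02257 on Affymetrix arrays, where a probe set of short oligonucleotides stands for each transcript and its relative brightness is called Signal. Canton S is a common wild-type laboratory strain, and BG numbers name lines of a collection in which each line carries a gene-trap P element; where these sit in the BG lines is not stated in the labels, which name no other allele and no treatment for any line. Both sexes of all lines were reared together, kept at 25 °C and a humidity of 70% under 12 h of light. Heads of 100 flies, 5 to 7 days old, made up 1 sample. Each of the 6 groups of line and sex had 2 arrays, and both arrays of BG02257 males carry the number 1 in their labels, so they are called male 1a and male 1b here.

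Sex in Drosophila is set cell by cell through a splicing cascade that runs from Sex-lethal through transformer to doublesex. In the head, much of the sex difference in transcripts lies in the fat body, the tissue around the brain that makes female yolk proteins and, in males, secreted factors tied to courtship. A difference that depends on the line is called a line by sex interaction: it is present when the female to male ratio of a transcript is not the same in every line. The design asks this question for every transcript.

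The arrays were of like brightness, with median Signals of 183.0 to 206.5 over all probe sets. Replicates correlated at Spearman's rho of 0.942 to 0.964 across probe sets, lowest for the BG02257 males, where 9.61% of tested probe sets differed more than 2-fold between replicates against 3.19 to 7.21% in the other groups. Male 1a was the lowest of the 12 arrays at 1331 of the 8380 probe sets, and by more than 1 on the log2 scale at 153, against 495 to 917 and 8 to 32 for the other arrays. The labels do not exclude that male 1a and 1b are repeat arrays of 1 sample. They were counted as separate samples, and the p-values assume that they are. Their agreement was the poorest of any pair, which does not show that they are separate. All 5 photoreceptor markers passed the brightness filter, and their summed Signal was 122337 to 155915 over the 12 arrays. Head samples hold many cell types, and fewer cells of a type cannot be told apart from less RNA per cell.

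No transcript had a sex difference that differed between the lines past the test. With all arrays in 1 limma model of 6 group means, 0 of 8380 probe sets (0.0%) were called for the interaction at a Benjamini-Hochberg adjusted p under 0.05, and the smallest adjusted p was 1.0. At an unadjusted p under 0.05 there were 235 (2.8%), fewer than the 419 that an even spread of p-values would give. The same was true of each pair of lines. BG02514 against Canton S B gave 0 calls (0.0%) and 204 (2.43%) at the unadjusted level, BG02257 against Canton S B gave 0 (0.0%) and 304 (3.63%), and BG02257 against BG02514 gave 0 (0.0%) and 268 (3.2%). The difference of 2 sex differences had a median standard error of 0.39 and a median 95% interval of 0.87 to either side, on the log2 scale. A call needs a larger difference still, since p-values are adjusted over all probe sets.

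The absence of calls did not hold without male 1b. Leaving that array out gave 9 interaction calls (0.107%) and 666 probe sets (7.95%) at the unadjusted level, while leaving out male 1a gave 0 (0.0%) and 305 (3.64%). Without any other array there were 0 calls and 167 to 343 at the unadjusted level. In a further 10 probe sets only a pair of lines was called without male 1b, which made 19 in all. At 16 of the 19, male 1a was the lowest of the 12 arrays. An example is mam, which encodes the Notch coactivator Mastermind: male 1a read 14.4 and the other 11 arrays read 172.5 to 289.2. Among the 19 were also Yp1, Yp2 and Yp3, where male 1a was instead the highest male array. Without male 1b, male 1a was the only array of BG02257 males, so each of these calls rests on it. Male 1a stood apart from its replicate, and what set it apart was not tested.

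**Figure D1:**
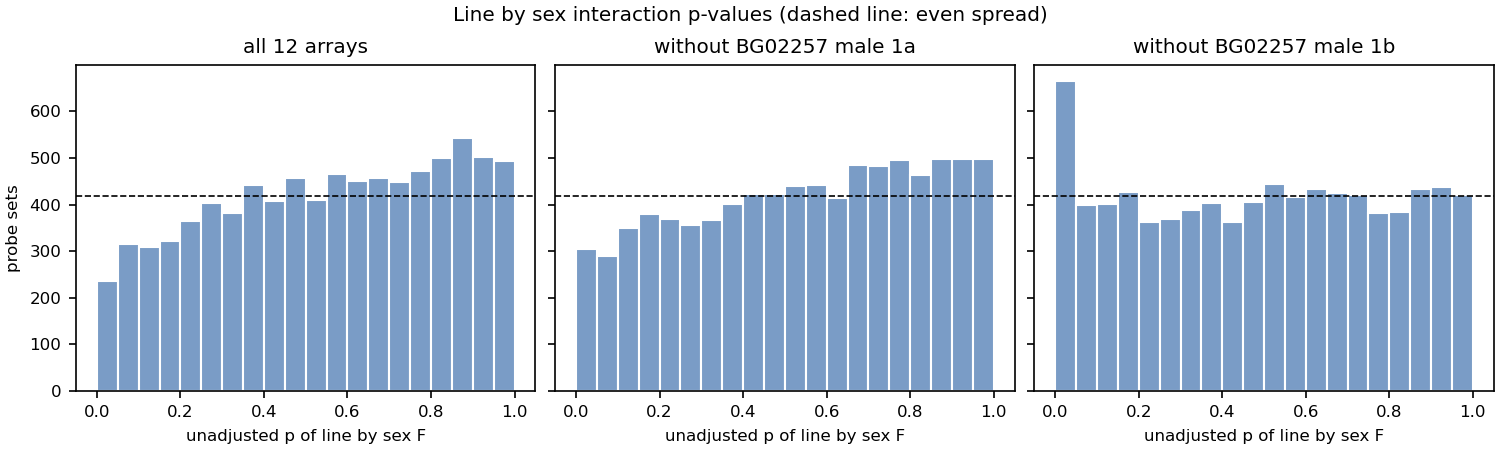
Number of the 8380 tested probe sets (y axis) in each bin of the unadjusted interaction p (x axis) with all 12 arrays, without male 1a and without male 1b; the dashed line marks an even spread. The lowest bin held 235, 305 and 666 probe sets.

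Sex differences that passed the test in 1 line mostly had the same direction in the others. Taken within each line, Canton S B had 34 called probe sets (0.406%), BG02514 had 10 (0.119%) and BG02257 had 12 (0.143%), 26 (0.31%), 7 (0.0835%) and 6 (0.0716%) of them higher in females and 8 (0.0955%), 3 (0.0358%) and 6 (0.0716%) higher in males. Together these were 38 probe sets: 7 were called in all 3 lines, 4 in 2 and 27 in 1. All 34 Canton S B calls had the same sign in both BG lines, and 33 and 30 of them also reached an unadjusted p under 0.05 there, against 7.55 and 8.52% of all tested probe sets. Their median size was 1.19 (log2) in their own line, 0.78 in BG02514 and 0.84 in BG02257, and they were smaller than in Canton S B at 25 and 30 of 34. A list chosen for large values in 1 line tends to be smaller elsewhere, so nothing is read from that drop. The 10 BG02514 calls kept their sign in both other lines, as did the 12 BG02257 calls except Npc2g in BG02514. These fits share 1 spread over all lines. When each line was fitted on its own 4 arrays, 28 of 32 BG02514 calls had the same sign in Canton S B and 31 in BG02257, and all 8 Canton S B and all 6 BG02257 calls had the same sign elsewhere. Large differences mostly shared their sign more often than small ones, of which 54.6 to 56.3% did when under 0.25 (log2). Of probe sets that differed by more than 2 in Canton S B, 76.2% had the same sign in either BG line. Of those in BG02514, 96.3% had the same sign in Canton S B and 88.9% in BG02257. Of the 55 in BG02257, 94.5% had the same sign in BG02514. In Canton S B 61.8% of these 55 did, near the 58.9% of all tested.

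The 3 counts should not be ranked. The Canton S B count was 7 without its male 1, 14 without either of its females, 12 or 13 without any 1 BG02514 array, and 15 and 13 without BG02257 female 1 and 2. The BG02514 count was 4 without its female 2 or its male 1. The BG02257 count was 3 without its female 1, 5 without its female 2, 7 without either BG02514 female, 25 without male 1a and 166 without male 1b. At the unadjusted level the lines were closer, with 651 (7.77%), 633 (7.55%) and 714 (8.52%) probe sets.

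The transcripts called in every line were Yp2, Yp3, Ndg and rost, higher in females, and sxe2, Cyp4d21 and Cyp313a1, higher in males. The lipase-family gene sxe2 was the most even of these. Its Signal was 672.5 and 795.6 in Canton S B females against 5954 and 5294 in males, 548.4 and 523.0 against 3873 and 4795 in BG02514, and 796.1 and 986.8 against 6436 and 6382 in BG02257. All 6 male arrays lay above all 6 female arrays. The differences were -2.94, -3.01 and -2.85 on the log2 scale (SE 0.18 each, limma adjusted p = 3.93e-05, 3.08e-05 and 5.39e-05), and no 2 lines differed by more than 0.15 (95% interval -0.41 to 0.72).

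Cyp313a1 encodes a cytochrome P450, a family of oxidising enzymes. Females read 2353 to 3148 and males 8272 to 10350 over the 3 lines, with no overlap. The male excess was 3.02-fold in Canton S B, 3.46-fold in BG02514 and 3.87-fold in BG02257 (limma adjusted p = 0.00377, 0.00117 and 0.000651). These calls, like those of sxe2 and Yp3, were kept in each line whichever 1 array was left out.

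Among transcripts higher in females, rost (rolling stone, a membrane protein of myoblast fusion) read 2327 and 2526 in Canton S B females and 467.8 and 218.2 in males. In BG02514 it read 3166 and 4034 against 322.8 and 526.3, and in BG02257 1864 and 2261 against 316.9 and 235.7. All female arrays were above all male arrays, and the folds of 7.59, 8.67 and 7.51 differed by less than their error (limma interaction F = 0.11, unadjusted p = 0.895). Its calls were lost under 2 of the 12 single-array removals in BG02514 and in BG02257 (limma adjusted p up to 0.0726 and 0.0921) and under none in Canton S B.

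Ndg encodes nidogen, a basement membrane protein made by hemocytes and fat body. It read 250.1 to 466.2 in all females and 13.0 to 26.4 in all males, so the male arrays lay near the bottom of the scale and the folds of 12.5, 16 and 17.1 rest on dim values there. The limma adjusted p was 0.026, 0.021 and 0.0168, and the call was lost under 8, 8 and 6 of 12 single-array removals. Odc1, the ornithine decarboxylase that starts polyamine synthesis, was higher in females by 1.84, 1.43 and 1.34 on the log2 scale and called in Canton S B and BG02514 but not in BG02257 (limma adjusted p = 0.0538). The difference between BG02257 and Canton S B was -0.50 (95% interval -1.19 to 0.20), so Odc1 is an example of a call made in fewer lines without a difference between lines past the test.

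**Figure D2:**
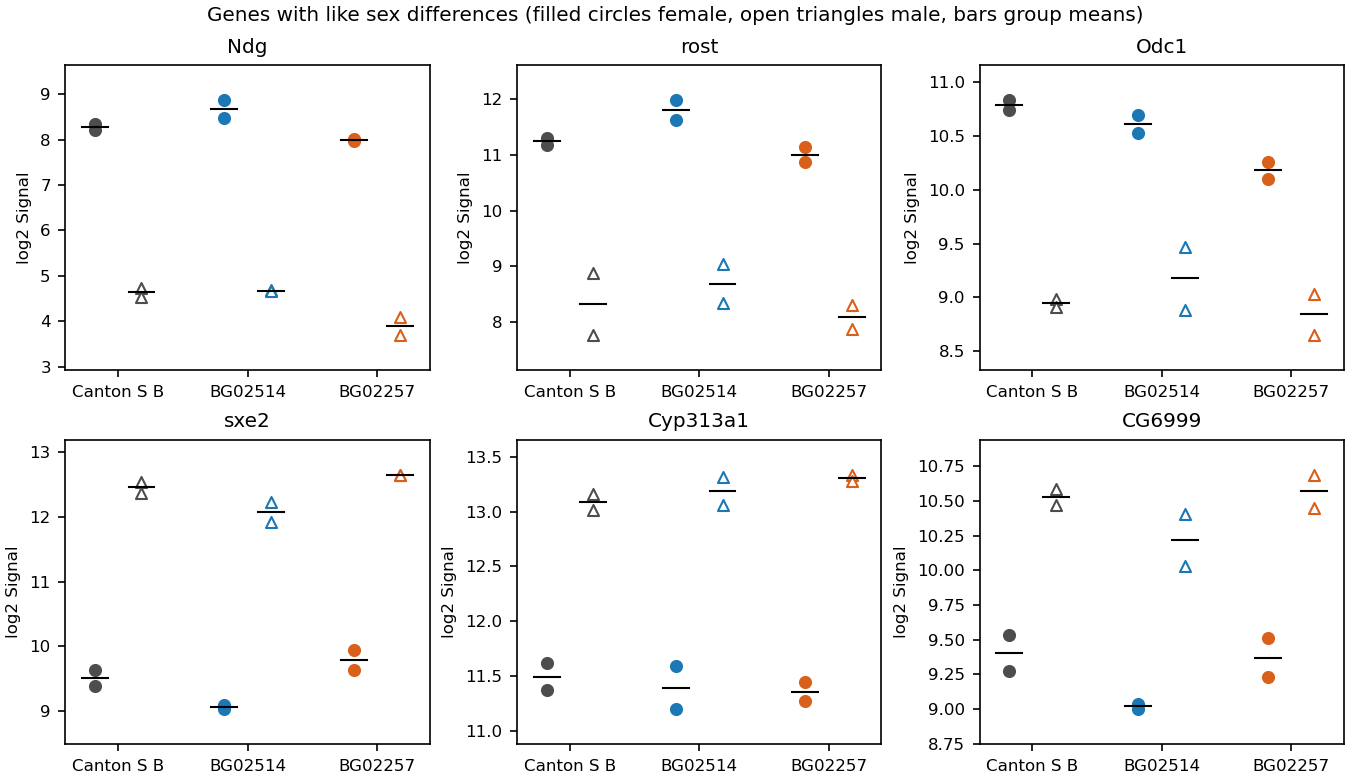
Log2 Signal (y axis) of 6 transcripts on each array by line (x axis), filled circles for females and open triangles for males, with a bar at each group mean. The gap between the sexes was of like size in the 3 lines, as for sxe2 at -2.94, -3.01 and -2.85.

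The smallest spread between lines among transcripts with a called average sex difference was seen mostly at modest differences. Aldh-III, an aldehyde dehydrogenase, differed by -0.48, -0.49 and -0.49 in Canton S B, BG02514 and BG02257, and Nap1, a histone chaperone, by 0.39, 0.40 and 0.41. Hers, a repressor of histone genes, gave 0.78, 0.75 and 0.73. Within a line none of these was called, and each was called for the average of the 3 lines (limma adjusted p = 0.0273, 0.0472 and 0.00323). The others of the 6 most even were Ugt49C1, hoe1 and CG6999. CG6999 had larger differences of -1.13, -1.2 and -1.2 and was called in Canton S B (limma adjusted p = 0.0483). A dimmer Hers probe set gave 0.16, 0.05 and 0.49. At hoe1 2 dimmer probe sets read -0.08, 0.41 and 0.20, and -0.53, -0.08 and 0.49, so the evenness of both genes is that of their brightest probe set only.

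The 7 sex-responsive transcripts of the head fat body had the same direction in every line. The size of the yolk protein differences in BG02257 turned on male 1a, while that of sxe2 was -2.85 without male 1a and -2.86 without male 1b. Other members moved too: fit was 5.35 without male 1a and 2.2 without male 1b, and Cyp4d21 was -1.97 and -3.37. Yp1, a yolk protein, read 77354 to 102732 in all females. Males read 496.1 and 325.6 in Canton S B, 171.7 and 386.8 in BG02514, and 6747 and 301.9 in BG02257, so that male 1a lay far above each other male. The differences by line were 7.83, 8.28 and 5.87 (SE 1.0 each, limma adjusted p = 0.00698, 0.00548 and 0.0558). Without male 1a the BG02257 value was 8.11, and without male 1b it was 3.63, with interaction F = 46.8 and limma adjusted p = 0.0169.

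Yp2 and Yp3 followed the same order. Yp2 differed by 7.73, 7.90 and 6.23, with males at 271.1 to 437.2 except male 1a at 3188. Yp3 differed by 5.44, 5.96 and 4.53, with males at 917.4 to 1685 except male 1a at 4403. In male 1a the 3 yolk transcripts stood at 8.08% (Yp1), 4.18% (Yp2) and 7.55% (Yp3) of the BG02257 female mean, against 0.361, 0.422 and 2.48% in male 1b. The list of 3 had a median difference of 7.73, 7.90 and 5.87 by line, and 7.89 in BG02257 without male 1a.

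The satiety peptide gene fit also read higher in male 1a (1434) than in male 1b (161.1), and its female excess of 3.15, 3.01 and 3.77 had an SE of 0.84. Some probe sets were called from Canton S B and BG02514 arrays alone. Of these, 16 of the 18 that were higher in females read higher in male 1a than in male 1b, by a median of 0.80. Of the 6 that were higher in males, 4 read higher in male 1a. Over all 8380 tested probe sets 3680 did, and the median was -0.07. The median difference of all probe sets called higher in females for the average was 0.47 in BG02257 with all arrays, 0.47 without male 1a and 0.43 without male 1b, so that median did not move with male 1a.

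On the male side of the same list the range over the lines was 1.84 for Obp99b, 1.11 for Cyp4d21 and 0.15 for sxe2, against 2.41 for Yp1. Obp99b, an odorant-binding protein gene that the fat body of males expresses, read 59.9 and 30.7 in Canton S B females against 3466 and 707.9 in males. It read 203.1 and 144.1 against 1292 and 2372 in BG02514, and 145.7 and 84.5 against 2782 and 3966 in BG02257. The sexes did not overlap in any line. The differences were -5.19, -3.36 and -4.90 (SE 0.63; -5.16 in BG02257 without male 1a and -4.65 without male 1b), called in Canton S B and BG02257 (limma adjusted p = 0.00559 and 0.00969) and not in BG02514 (0.113), while BG02514 and Canton S B differed by 1.84 (95% interval -0.12 to 3.79). The P450 gene Cyp4d21, needed for male mating, differed by -3.33, -3.79 and -2.67, and its BG02257 call (limma adjusted p = 0.0455) was lost under 11 of 12 single-array removals.

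At the top of the cascade, Sxl was higher in females by 0.71, 0.73 and 1.10 and was called for the average of the lines (limma adjusted p = 0.0181) and in no single line. It read 619 in male 1a and 1319 in male 1b, and the BG02257 difference was 0.55 without male 1a and 1.64 without male 1b. A dimmer Sxl probe set, singled out after its values were seen, gave 0.95, 1.21 and 1.8 and was called in BG02257 (limma adjusted p = 0.0455). The doublesex probe set read 224.5 to 301.7 in all females and 8.5 to 24.5 in all males except male 1a at 68.0. Its female excess was 4.15, 4.02 and 3.09 (SE 0.84, average limma adjusted p = 0.00309), and these sizes rest on dim male values. Which splice forms of doublesex the probe set reads was not tested, so the values need not be those of all its RNA. Of the 11 sex determination genes tested, these were the 2 called for the average, against 2.84% of all tested probe sets, and 0 reached an unadjusted interaction p under 0.05, against 2.8%.

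**Figure D3:**
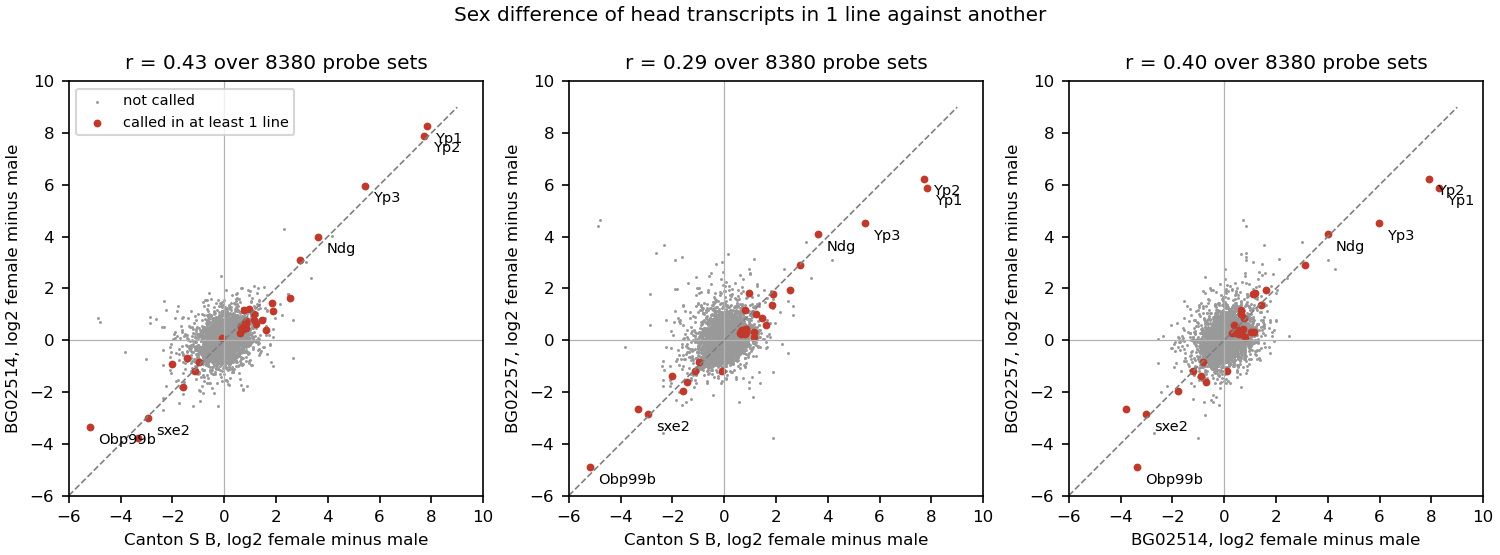
Female minus male difference (log2 Signal) of the 8380 tested probe sets in 1 line (x axis) against another (y axis) for the 3 pairs of lines, red where called in at least 1 line; the dashed line marks equal differences. Called probe sets lie at unequal distances from the dashed line. Yp1, Yp2 and Yp3 lie below it in BG02257. Others lie off it too, as Obp99b at -5.19 in Canton S B and -3.36 in BG02514.

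Across all probe sets the 3 sex differences agreed weakly. Pearson's r was 0.43 for Canton S B and BG02514, 0.29 for Canton S B and BG02257 and 0.40 for BG02514 and BG02257, with Spearman's rho of 0.34, 0.25 and 0.29; these are over probe sets, which share arrays and are no replicates. Without the 3 yolk protein probe sets r was 0.37, 0.25 and 0.36. The sign was the same in all 3 lines at 3409 probe sets (40.7%), and at 512 (6.11%) the sexes also did not overlap in any line. Agreement went with brightness: among the 2095 dimmest tested probe sets r was 0.28, 0.21 and 0.25 and 33.3% shared their sign, and among the 2095 brightest r was 0.73, 0.51 and 0.69 and 50.4% did.

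Single pairs of arrays agreed poorly within a line too. When each difference was made from 1 female and 1 male array, 2 separate differences from the same line correlated at medians of 0.09 (Canton S B), 0.30 (BG02514) and 0.16 for the line BG02257. Differences from different lines correlated at medians of 0.26, 0.18 and 0.26 in the order above. Repeats within Canton S B and within BG02257 thus agreed no better than differences between lines did, and repeats within BG02514 somewhat better.

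The 238 probe sets with a called sex difference averaged over the lines (2.84%; 164, or 1.96%, higher in females and 74, or 0.883%, higher in males) are described here without a test. They were chosen on the mean of the 3 lines, which favours a common sign and, through the spread shared by both tests, a small interaction p. An unadjusted interaction p under 0.05 was found at 18 (7.56%), against 2.8% of all tested. The sign differed between lines at Npc2g and fkh only, a near absence that the choice largely fixes. At 146, 140 and 135 of the 238, the 95% interval of the difference between 2 lines lay within 1 on the log2 scale to either side of 0 (BG02514 and Canton S B, BG02257 and Canton S B, BG02257 and BG02514). For the same pairs the interval excluded 0 at 12, 32 and 15 of the 238. Of all tested probe sets, 2.43, 3.63 and 3.2% had an unadjusted limma p under 0.05 for these pairs. Female-biased probe sets had median differences by line of 0.65, 0.59 and 0.47, and the difference was smallest in BG02257 at 97 of 164. With quantile normalization the medians were 0.55, 0.52 and 0.47. Male-biased ones had medians of -0.81, -0.59 and -0.89, weakest in BG02514 at 38 of 74.

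Npc2g had the largest interaction F of any named gene. It belongs to the NPC2 family of secreted proteins that bind sterols and other lipids. Its Signal was 9415 and 9740 in Canton S B females against 10911 and 9575 in males, and 11667 and 11461 against 10398 and 11202 in BG02514. In BG02257 females read 2740 and 3529, below all other arrays, and males read 7384 and 6710. The sex difference was -0.09, 0.10 and -1.18 (SE 0.15), called in BG02257 alone (limma adjusted p = 0.00969; 0.115 without BG02257 female 1). The BG02257 difference was below that of Canton S B by 1.08 (95% interval -1.56 to -0.61, unadjusted p = 0.000356) and below that of BG02514 by 1.28 (-1.75 to -0.81, unadjusted p = 9.06e-05). With F = 20.7 and an unadjusted p of 0.000181, the interaction had a limma adjusted p of 1.0 over all probe sets.

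Its family did not share the pattern. Npc2h was higher in males in every line, by 4.04-fold in Canton S B, 1.88-fold in BG02514 and 2.59-fold in BG02257, and was called in Canton S B (limma adjusted p = 0.022). Canton S B females read 1997 and 1381, below every other array, and males 9613 and 4676. The BG02514 difference was smaller by 1.10 (95% interval 0.17 to 2.03, unadjusted p = 0.0246). A dimmer Npc2h probe set gave -0.83, -0.41 and -0.72 and was called in no line (limma interaction unadjusted p = 0.789). The call and the size of the line difference are thus those of the brightest Npc2h probe set only. Npc2a, Npc2b and Npc2c had differences of -0.33 to 0.42 in every line, and none was called.

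At several other transcripts with a large F, the arrays of 1 line and sex stood apart. In BG02514 the translation factor gene eIF6 read 144.3 and 92.7 in females and 450.5 and 328.2 in males, against 287.2 to 433.4 on the 8 arrays of the other lines. Only the BG02514 females were low, and the difference was 0.17, -1.73 and 0.10 (F = 13.0, unadjusted p = 0.00124). CG9676, annotated without a name, read 9531 and 9262 in BG02514 females against 5480 and 5312 in males, while BG02257 males read 7092 and 9737, above their females at 6220 and 6249. Its differences were -0.02, 0.80 and -0.41 (F = 14.9, unadjusted p = 0.000713).

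In Canton S B the unconventional myosin gene Myo95E read 33.2 and 25.1 in males and 125.0 and 259.7 in females, while the other lines held 75.4 to 294.1 in either sex. Only Canton S B males were dim, with differences of 2.64, -0.70 and 1.34 (F = 11.1, unadjusted p = 0.00226). Pgant4, a glycosyltransferase gene of mucin-type O-glycosylation, was lower in Canton S B females, at 90.9 and 78.1 against 119.5 to 312.4 on all other arrays.

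In BG02257 the kinase gene wts of the Hippo growth pathway read 327.0 and 386.6 in females against 81.3 and 97.1 in males, a difference of 2.0, while Canton S B gave -1.04 and BG02514 -0.56 (F = 13.4, unadjusted p = 0.0011). The BMP ligand gene gbb, whose product signals through the TGF-beta family receptors, differed by 0.41, 1.40 and -0.77. Its lowest arrays were BG02514 males at 87.1 and 72.7 and its highest BG02257 males at 318.7 and 442.3. The forkhead transcription factor gene fkh, called for the average (limma adjusted p = 0.0487), gave -0.49, 1.58 and 2.61.

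Seen together, the 235 probe sets under the unadjusted level were no single class. The sex difference had both signs among the lines at 211, which follows in part from choosing them for disagreement. The line farthest from the mean of the other lines was Canton S B at 69, BG02514 at 74 and BG02257 at 92. They were dimmer than the rest, with a median mean Signal of 345 against 448. As none of the 235 passed the adjusted threshold for the interaction, none of these transcripts is called line-dependent here.

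**Figure D4:**
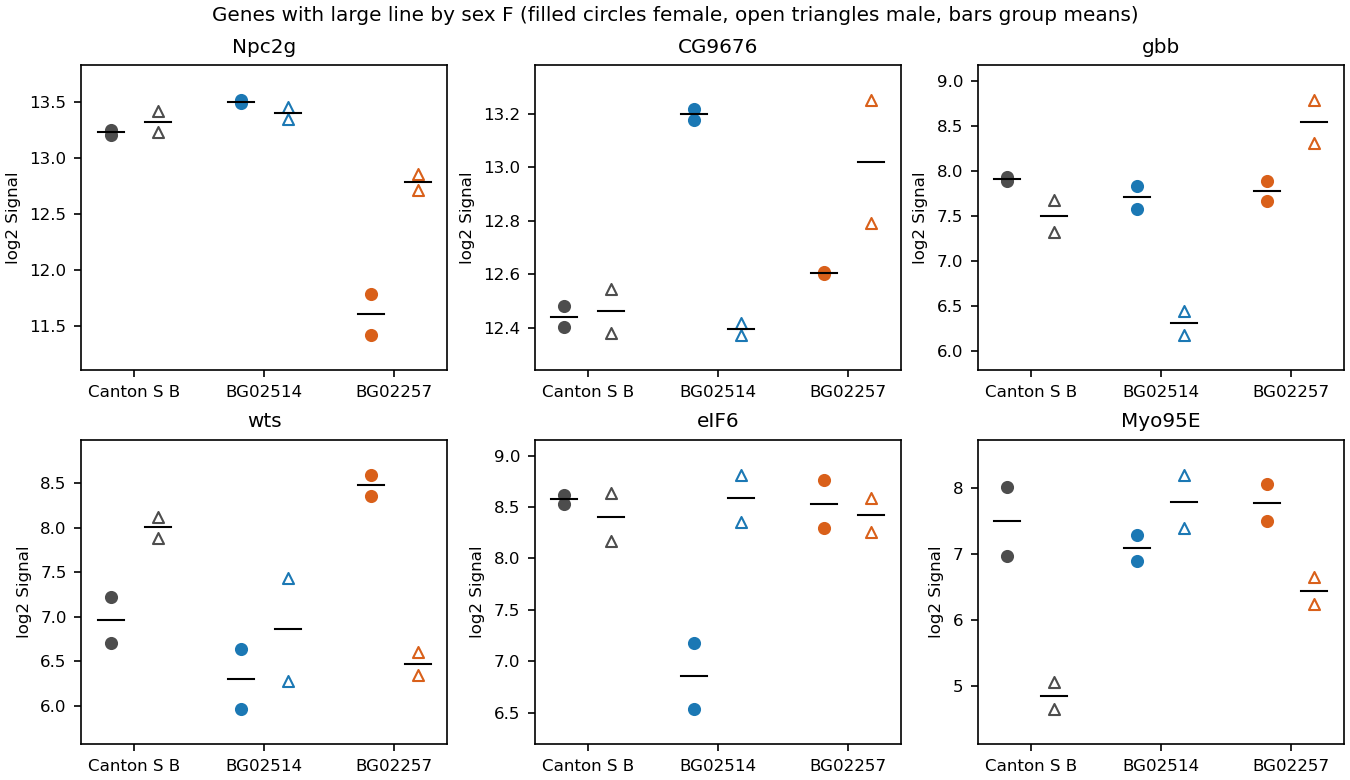
Log2 Signal (y axis) of 6 transcripts with a large interaction F on each array by line (x axis), filled circles for females and open triangles for males, with a bar at each group mean. At Npc2g the 2 BG02257 females lie below all other arrays, and at eIF6 the 2 BG02514 females do; no interaction passed the test.

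Cytosolic ribosomal protein genes, which encode the subunits of the translating ribosome, had a graded sex difference. Of 27 tested, 20 were called higher in females for the average of the lines, against 1.96% of all tested probe sets. Within Canton S B 3 were called (RpL37A, RpLP1 and RpS12), against 0.31%, with 0 within either BG line. The median differences by line were 0.55, 0.39 and 0.20, beside -0.01, 0.00 and 0.01 over all tested probe sets. It was smallest in BG02257 at 27 of 27, and at 23 to 27 when any 1 array was left out. With quantile normalization between arrays the medians were 0.15, 0.16 and 0.05, the order of Canton S B and BG02514 turned, and BG02257 was smallest at 20 of 27. The genes are among the brightest on the array and share its scaling, so they are not separate observations.

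RpL37A had the largest interaction F of the list. It read 31286 and 26739 in Canton S B females against 13312 and 12929 in males, 19140 and 26859 against 12986 and 13143 in BG02514, and 17489 and 20536 against 15669 and 18972 in BG02257. Its sexes overlapped in BG02257 only. The differences were 1.14, 0.80 and 0.14, and BG02257 lay below Canton S B by 1.0 (95% interval -1.54 to -0.47, unadjusted p = 0.00171). RpL28 was the other member under the unadjusted level (interaction unadjusted p = 0.0468, limma adjusted p = 1.0), with 0.33, 0.66 and 0.11. The call of RpL37A in Canton S B was lost under 6 of 12 single-array removals, that of RpS12 under 10 and that of RpLP1 under all 12.

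Antimicrobial peptide genes, the secreted effectors of the Toll and Imd immune pathways, had median differences of 0.01, 0.00 and -1.11 over 5 tested members. Single arrays moved these: the BG02257 median was -1.55 without its female 1 and -0.64 without its female 2, and the BG02514 median was -0.61 and 0.41 without its female 1 and 2, and 0.51 and -0.56 without its male 1 and 2. The Canton S B median was 0.49 without its female 1. Drosomycin (Drs) was lower in females of each line, by 0.98, 1.26 and 1.11, and was called for the average (limma adjusted p = 0.015). DptB, a diptericin, gave 1.34, 0.03 and -1.24 by line (interaction unadjusted p = 0.0368, limma adjusted p = 1.0), and Mtk, encoding metchnikowin, gave 0.24, -0.10 and -1.20. The values of Mtk within BG02514 ran from 10110 to 20529 in females and from 10105 to 23645 in males, so that replicates of 1 group lay far apart. Def and Drsl5 lay between -0.15 and 0.38 in each line.

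Heat shock and chaperone genes were lowest in BG02257 at 6 of 7, with medians of 0.06, 0.01 and -0.36. That count was 3 of 7 without Canton S B male 1 and 4 of 7 without Canton S B female 1, where the Canton S B median was -0.16 and -0.08. Hsp60A, the mitochondrial chaperonin, was called lower in females for the average (limma adjusted p = 0.0401), with -0.69, -0.22 and -0.45. Hsc70-3, the chaperone of the endoplasmic reticulum, had differences of 0.50, 0.52 and -0.03 (interaction unadjusted p = 0.0469, limma adjusted p = 1.0).

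Among markers of other cell types, the muscle and neuron medians were highest in BG02257, and both moved with its male arrays. Muscle markers had median differences of 0.27, 0.10 and 0.61 over 13 tested members, 0.97 in BG02257 without male 1a and 0.33 without male 1b. Male 1b was the lowest array at 8 of 13, against 629 of all 8380. Its summed muscle Signal was 40152, against 54107 to 75555 on the others. Neuron markers had medians of -0.25, -0.30 and 0.25 over 14 members, and -0.18 in BG02257 without male 1a. With the filter at the 60th percentile the medians were -0.31, -0.29 and -0.13 over 11 members. Male 1a was the lowest array at 7 of 14, against 1331 of all 8380. Its summed neuron Signal of 17063 lay within the 15749 to 23857 of the other arrays. The pan-neuronal gene elav read 178.6 in male 1a and 390.2 in male 1b. Hemocyte markers, above 0 at 16, 15 and 15 of 17 (against 48.8, 49.6 and 50.7% of all tested), had medians of 0.48, 0.46 and 0.37. The Canton S B median was 0.95 without its female 1, 0.07 without its female 2 and 0.80 without its male 1. The BG02257 median was 0.03 and 0.72 without its female 1 and 2, and 0.60 and 0.14 without male 1a and 1b. For fat body markers the medians were -0.13, 0.10 and -0.21, for gut enzymes -0.08, 0.36 and 0.15, and for photoreceptors -0.05, -0.06 and 0.02. Of 18 ovary markers only 5 and of 28 testis and accessory gland markers only 6 passed the brightness filter, and none of these was called within a line. The 5 ovary markers had medians of -0.48, 0.00 and 0.15. The 6 testis and accessory gland markers had medians of -0.52, -0.15 and -0.46, with 0, 1 and 0 above 0. Of these 6, 1 was called higher in males for the average, against 0.883% of all tested. Summed Signal of all 28 was 5866 to 9223 on male arrays and 3966 to 5656 on female arrays. No member of any marker list was called for the interaction, and the part of these cell types in other results was not tested.

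**Figure D5:**
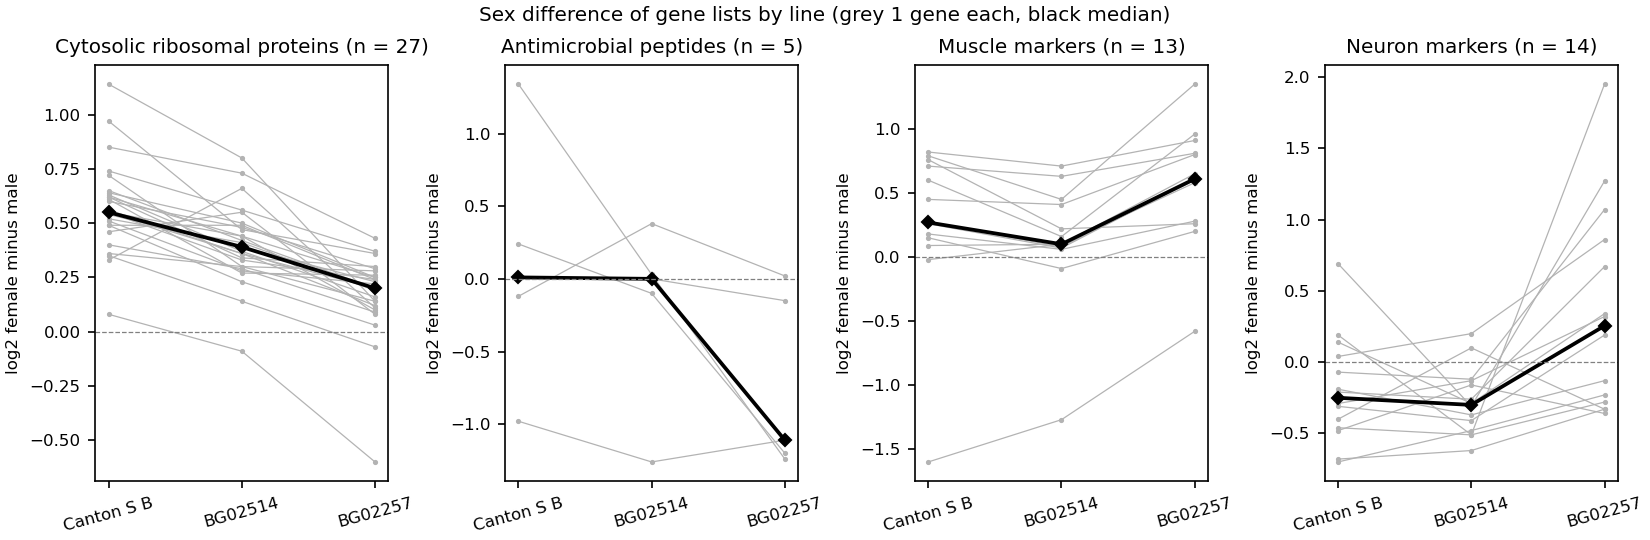
Female minus male difference (log2 Signal, y axis) by line (x axis) of the tested members of 4 gene lists, grey for single genes and black for the median. Ribosomal protein medians were 0.55, 0.39 and 0.20, and muscle and neuron medians were highest in BG02257.

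Lists for senses and daily timing had near-zero medians in every line: -0.01, -0.03 and 0.02 for 17 phototransduction genes and -0.09, -0.09 and -0.07 for 12 clock genes, with 0 members called for the average or under the unadjusted interaction level. Odorant-binding protein genes had 5 of 23 tested members called for the average, against 2.84% of all tested, 4 of them higher in females. Among these Obp56d was even (0.97, 0.77 and 0.81), Obp56e gave 2.55, 1.63 and 1.95, and Obp99a gave 2.32, 4.28 and 2.74 with an SE of 0.75. Cytochrome P450 genes had 5 of 48 called for the average, against the same 2.84%, and Cyp18a1, an ecdysone-inactivating enzyme on the X chromosome, was the member called higher in females (1.15, 1.30 and 0.62). Of the 4 dosage compensation genes tested, mle had differences of 0.18, -0.73 and 0.50 (interaction unadjusted p = 0.0174, limma adjusted p = 1.0), and 0 were called in any line.

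By chromosome arm, the median difference of X-linked genes was 0.03, 0.03 and 0.04 in the 3 lines over 1171 genes, and the medians of the large autosome arms lay between -0.03 and 0.00. The share of genes under the unadjusted interaction level was 2.99% on the X and 2.33 to 3.13% on 2L, 2R, 3L and 3R.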

How the data were processed

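Signal intensities on a linear scale were deposited, and per the labels they are the Signal that the Affymetrix software computes. GCOS is named in the submitters' processing notes; no version of it is given there. Of 14010 probe sets 44 controls were left out. The deposited intensities had a trimmed mean of 500.1 on every array with 2% of each tail removed, so arrays had already been scaled. Such scaling assumes a like total on each array, and changes in many bright transcripts can shift the rest. No depth applies to arrays, and 2 arrays a group limit the precision.

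Arrays were brought to 1 trimmed mean again and log2 of Signal taken with no pseudocount. One model of 6 group means, equal to the line, sex and interaction model of the labels, was fitted in R 4.3.3 with limma 3.58.1, its variances moderated along a trend with mean level (6 residual and 5.09 prior degrees of freedom). Tests were 2-sided and adjusted by Benjamini-Hochberg over 8380 probe sets, and a call is an adjusted p under 0.05. P-values measure only the spread between these pooled samples, part of which may be technical. The fit was checked on simulated arrays.

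A platform annotation gave 12442 probe sets 1 gene symbol, 327 several and 1197 none, and 12393 were matched to a RefSeq record. The brightest tested probe set stood for a gene, and 919 tested probe sets have no single name. Such probe sets made up 11 Canton S B calls, 0 BG02514 calls and 1 BG02257 call. Named are the 12 genes with the largest F, the 4 per direction most different for each pair of lines, up to 8 per direction called in each line, the 6 most and 6 least even among those with a called average, members of gene lists called in a line or for the average, and all tested yolk protein, fat body and NPC2 genes. Members named beyond these, such as other list members, mam and elav, were chosen after their values were seen. The comparison, the lists and the rule were chosen with earlier results of these data known. Replicate numbers did not pair the samples: deviations of same-numbered arrays correlated at -0.24 to 0.05 over 6 pairs of groups. Other settings tried were the filter, pseudocounts of 16 and 64, quantile normalization, the deposited values, no variance trend, a fit to each probe set alone, a replicate block, the fit restricted to the lines compared, the BG02257 males as 1 sample, and each array left out.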

Additional observations from a re-analysis of the deposited data

Results flagged for a closer look

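Within each sex, 14 sets of 6 arrays were screened for an array set apart from the rest (a large gap to its neighbour relative to the whole range, by Dixon's criterion), and 5 were marked, where chance marks about 1 in 20. Among males, BG02257 male 1a stood apart in Yp1 (6747, gap ratio 0.95), Yp2 (3188, 0.94) and Yp3 (4403, 0.78), each time above all other males. Among females, Canton S B female 1 stood apart in Yp1 (102732, gap ratio 0.64) and in the 3'/5' ratio of the eIF-4a control probe sets (3.12, gap ratio 0.66), a measure used to judge RNA integrity. The 3 yolk transcripts are co-expressed and are not independent marks.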

How the results depend on the processing

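The interaction stayed at 0 calls in every setting run except without male 1b; leaving out single arrays gave 0 to 9 calls for the interaction, 0 to 0 for BG02514 against Canton S B, 0 to 18 for BG02257 against Canton S B and 0 to 8 for BG02257 against BG02514. The averaged sex difference ranged from 116 to 299 calls, and within lines from 7 to 38 (Canton S B), 4 to 10 (BG02514) and 3 to 166 (BG02257). Correlations between lines ranged over 0.31 to 0.43, 0.19 to 0.31 and 0.26 to 0.41 (Canton S B with BG02514, Canton S B with BG02257, BG02514 with BG02257).

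Without the brightness filter there were 145 calls for the average and 14 in Canton S B, and correlations of 0.19, 0.14 and 0.19. A filter at the 60th percentile gave 0.56 for Canton S B with BG02514 and 0.53 for BG02514 with BG02257, and a pseudocount of 64 gave 0.50 for the first. Without the variance trend there were 99 for the average and 13 in Canton S B, and with quantile normalization 17 in Canton S B. Fitting each probe set alone gave 105 (log2) and 103 (linear Signal) for the average, 6 and 13 in Canton S B, 2 (log2) in BG02514, and 2 and 7 in BG02257. Each line's own 4 arrays alone gave 8, 32 and 6 calls. The cause of these moves was not tested.

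As a replicate block the label number, which did not pair the samples, gave 0 interaction calls, 172 for the average, and 13, 7 and 7 within Canton S B, BG02514 and BG02257. The crossed pairing, added after seeing the data, gave 13 in Canton S B and 7 in BG02257. Of 39 calls of named genes within lines, 13 were kept without any 1 array and 4 in all settings.

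With 2 arrays a group the median unadjusted 95% interval reached 0.87 (log2) to either side, and the limit for a call was higher: at Npc2g a difference of 1.28 between BG02257 and BG02514 had a limma adjusted p of 0.725. Where an arm was left with 1 array, its spread was assumed to be that of the other groups.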

Other observations

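The 20 probe sets with the widest range of the 3 sex differences had a median rank of 254 by interaction F among the 8380 tested. They were chosen after their values were seen. At 9 of the 20 the arrays Canton S B female 2 and BG02257 male 1b were the 2 lowest, against 99 of all 8380 (1.18%). The largest range of a named gene was that of the mucin gene Muc68D, which is not one of the 9. At Muc68D Canton S B females read 1491 and 2.5, males 1134 and 2799, BG02257 females 3204 and 2482 and BG02257 males 1653 and 10.4, while all 4 BG02514 arrays read 4.1 to 24.0. The 3 differences were -4.87, 0.84 and 4.43, with an unadjusted interaction p of 0.0766 in limma. Among the 9, CG34324 read 435 in Canton S B female 2 and 303 in male 1b against 7320 to 19152 on the other 10 arrays. Ag5r, an antigen 5-related gene, read 10.6 and 9.9 on these arrays and 166 to 1494 on the rest. Summed gut enzyme Signal was also lowest on these arrays, at 9597 and 9848 against 11036 to 20377, and its part in this pattern was not tested.

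Of the other members, Hr38, a nuclear receptor gene induced by neuronal activity, read 21.9 and 78.3 in Canton S B females against 582 and 158 in males, with differences of -2.87, 0.68 and 0.58 (interaction unadjusted p = 0.00676, limma adjusted p = 1.0). Cyp4g1, the oenocyte P450 of cuticular hydrocarbon synthesis, read 12.0 in Canton S B female 2 and 1850 in Canton S B male 1, and 75.7 to 549 on the other 10 arrays.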
